A study of Balaenoptera physalus with 6 samples.

Results

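OTX1 encodes a paired-like homeodomain transcription factor of the orthodenticle family. Members of this family bind DNA through the homeodomain and act in patterning of the forebrain and midbrain. In mice OTX1 is needed for normal development of the cerebral cortex, the eye and the inner ear. Skin is not a tissue in which OTX1 has a well-known role, and promoters of such developmental regulators are often rich in CpG dinucleotides, the sites at which vertebrate DNA is mainly methylated.

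The OTX1 sites described here are those cytosines in the authors' lists of different sites that carry OTX1 as the name of their promoter, exon or intron. Listed sites with no gene name within 20000 bases of these on the same scaffold were added. The rule gave 35 sites of the 37640 listed in all, and each was in CpG context. Of them, 29 carried the gene name and 6 had none. None of the 1742 listed CHG sites and none of the 3216 listed CHH sites met the rule.

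Skin of fin whales (Balaenoptera physalus) was profiled by reduced representation bisulfite sequencing (RRBS), in which MspI fragments are bisulfite-treated so that unmethylated cytosines read as thymine. The labels called 3 samples high in organochlorine contaminants (high OC) and 3 samples low (low OC), with the aim of relating methylation patterns to contaminant load. The series title places the whales in the Mediterranean, and sex and age are not given in the labels used here. Sample titles began with BPT in the high OC group and with BPL in the low OC group, so whatever those letters mark cannot be told apart from contaminant load. The labels do not state whether each sample is a separate animal, so spreads between samples may be partly technical.

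The listed sites were chosen by the authors on the levels of these 6 samples: the group means had to lie at least 10 points apart, with an unadjusted p no larger than 0.05. The levels, differences, directions and spreads within groups below were therefore the values that chose the sites. They are given as a description with no test, and neighbouring CpG sites that were not listed were not analysed here. The level of the whole OTX1 promoter was not measured for that reason.

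All 35 sites had a higher mean level in high OC skin. Of the 32682 CpG sites listed in all, 16565 outside OTX1 were higher as well. Many of the 35 share reads, so nothing is read from their common direction. The 35 sites lay between starts 4633914 and 4637730 on scaffold NW_006730123_1, positions being those of the start column as deposited. The nearest other listed CpG site of that scaffold, in TMEM17, was 526540 bases away. The sites fell into 7 groups with gaps of over 100 bases between them. Going up the scaffold, 6 sites with no gene name came first (4633914 to 4634000). A first promoter cluster of 10 sites (4634173 to 4634408) and a second of 5 sites (4634801 to 4634872) followed. After these came 3 sites named as both promoter and intron (4635163 to 4635192), single intron sites at 4636495 and 4637507, and 9 exon sites (4637630 to 4637730). The 6 sites with no gene thus ended 173 bases before the first promoter site, and the 18 promoter sites spanned 1019 bases.

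Levels in low OC skin changed more along the stretch than those in high OC skin. By location the high OC mean ran from 81.2% (no gene) to 93.9% (intron). The low OC mean ran from 35.7% (first promoter cluster) to 76.0% (intron). Averaged over the 35 sites, the high OC samples stood at 87.0%, 91.4% and 86.0%, and the low OC samples at 38.0%, 47.1% and 65.0%. The group means were 88.1% ± 2.84 (SD, n = 3) and 50.0% ± 13.7 (SD, n = 3). At 34 of the 35 sites every high OC sample was above every low OC sample. Among the 651 CpG sites of the only stretch for which unselected sites were analysed, on another scaffold, 2.61% had that property. The authors called 1.23% of those sites higher in high OC skin and 2.00% in either direction. Since the listing itself all but requires groups that do not overlap, nothing is read from the count at OTX1.

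**Figure D1:**
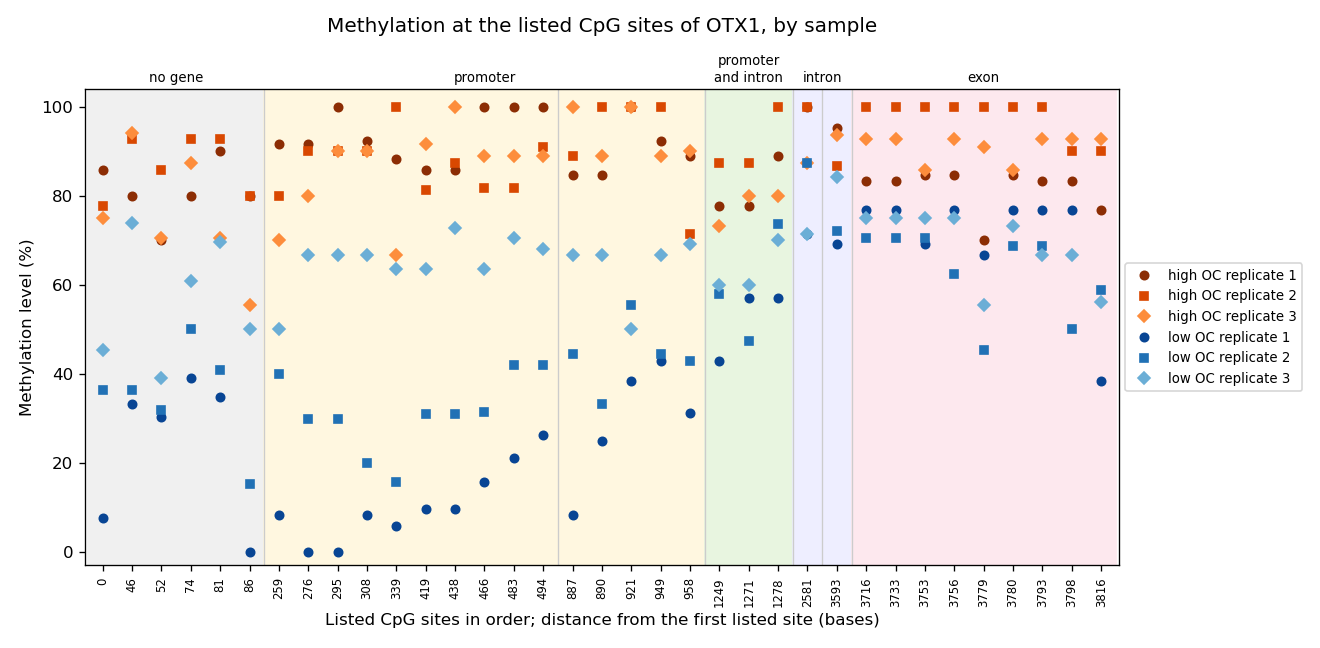
Methylation level in percent (vertical axis) of each of the 35 listed CpG sites, in order along the scaffold and marked with the distance in bases from the first site (horizontal axis, not to scale). Orange and brown points are the 3 high OC samples, blue points the 3 low OC samples, and shading marks the annotated location. The high OC points lie at 55.6% or above throughout, while the 3 low OC samples fan out over the sites with no gene and the promoter and come together in the exon.

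The largest difference between group means lay in the first promoter cluster, where the low OC samples were also farthest apart. Over its 10 sites, the high OC samples averaged 93.5%, 87.3% and 85.5%. The low OC samples averaged 10.5% in replicate 1, 31.4% in replicate 2 and 65.2% in replicate 3. Replicate 1 was thus low on average, at 0% to 26.3% per site, and replicate 3 was mostly methylated, 20.3 points under the lowest high OC sample. The group means were 88.8% ± 4.21 (SD, n = 3) and 35.7% ± 27.6 (SD, n = 3), a difference of 53.1 points. At all 10 sites low OC replicate 1 was the lowest and replicate 3 the highest of the low OC group.

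Single sites of this cluster show how the samples compared. The site at 4634209 had the largest difference of all OTX1 sites, 61.1 points. Its high OC levels were 100%, 90% and 90%, and its low OC levels 0%, 30% and 66.7%. The 0% rested on 12 reads, which allows a level of up to 25%, and the 66.7% rested on 6 reads. The neighbouring site at 4634222 had 92.3%, 90% and 90% in high OC and 8.33%, 20% and 66.7% in low OC skin. At 4634253 the high OC levels were 88.2%, 100% and 66.7%, and those in low OC skin were 5.88%, 15.8% and 63.6%. The groups did not overlap at any of these sites, but at 4634253 the lowest high OC sample was within 3.03 points of the highest low OC sample.

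Few reads lay behind most of these values, and the deepest sites bear on how far samples can be told apart. Only at 4634333 and 4634352 were there at least 20 reads in each sample, and the second of these is described here for its depth. At 4634352 the high OC levels were 85.7%, 87.5% and 100%. The low OC levels were 9.76% of 41 reads, 31.1% of 45 reads and 72.7% of 22 reads. Wilson 95% intervals ran from 3.86% to 22.5% in low OC replicate 1, from 19.5% to 45.7% in replicate 2 and from 51.8% to 86.8% in replicate 3. The interval of replicate 3 did not meet those of the other 2 low OC samples, while the intervals of replicates 1 and 2 overlapped. The interval of replicate 3 overlapped that of every high OC sample, 68.5% to 94.3%, 71.9% to 95.0% and 86.2% to 100%. The site at 4634333 had the same read counts as 4634352 in each sample. There the interval of low OC replicate 3, 43.0% to 80.3%, did meet that of replicate 2, 19.5% to 45.7%. These intervals cover counting error only. At both deep sites the count of methylated reads was even in every sample, although the coverages of 41 and 45 reads were odd. If methylated reads were counted doubly there, the intervals would be too narrow, and those at 4634352 might meet as well. Whether they were was not tested. Over all 35 sites and 6 samples, interval widths ran from 12.1 to 62.5 points with a median of 38.6.

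The second promoter cluster had the same order of low OC samples on average. Its lowest high OC sample stood 26.2 points above its highest low OC sample, more than in the first cluster. The 5 sites averaged 90.1%, 92.1% and 93.6% in the high OC samples and 29.2%, 44.1% and 63.8% in the low OC samples. The site at 4634835 stood out in the other direction, since its low OC samples were close together. It was fully methylated in each high OC sample and had 38.5%, 55.6% and 50% in low OC skin. In the authors' deposited table it had the smallest p-value of the OTX1 sites, 0.0004959, and it is named for that after its values were seen.

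The 3 sites annotated as both promoter and intron had a smaller gap between groups than the promoter clusters before them. They averaged 81.5%, 91.7% and 77.8% in high OC and 52.4%, 59.6% and 63.3% in low OC skin. The site at 4635192 had the smallest difference of the promoter sites, 22.7 points. Its levels were 88.9%, 100% and 80% in high OC and 57.1%, 73.7% and 70% in low OC skin, so the groups did not overlap. Over all 18 promoter sites the mean difference was 46.5 points, between 88.8% ± 2.12 (SD, n = 3) and 42.3% ± 21.0 (SD, n = 3). It was 36.7 points without low OC replicate 1 and 57.6 points without low OC replicate 3, and the sites had been chosen with those samples included.

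The 6 sites with no gene name had a low OC mean of 38.6% ± 16.4 (SD, n = 3), between the low OC means of the promoter clusters, 35.7% and 45.7%. Sample by sample they averaged 81.0%, 87.0% and 75.6% in high OC and 24.2%, 35.1% and 56.5% in low OC skin. At each of the 6 sites the low OC samples had the order found in the first promoter cluster. The largest differences were at 4634000, with 80%, 80% and 55.6% against 0%, 15.4% and 50%, and at 4633914, with 85.7%, 77.8% and 75% against 7.69%, 36.4% and 45.5%. The 0% at 4634000 in low OC replicate 1 came from 23 reads, which allows up to 13.0%. At 4633966 the low OC samples were close together, at 30.4%, 31.8% and 39.1%, against 70%, 85.7% and 70.6% in high OC skin. The smallest difference was at 4633995, with 90%, 92.9% and 70.6% against 34.8%, 40.9% and 69.6%. There the groups were separated only by 1.02 points, less than a single read at that depth.

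Inside the gene the low OC samples lay close together and nearer to the high OC samples. The 9 exon sites averaged 81.6%, 97.8% and 91.1% in high OC and 70.7%, 62.9% and 68.7% in low OC skin. Low OC replicate 1, the lowest of its group in the promoter, was the highest of its group there. At 4637730, the exon site with the largest difference, levels were 76.9%, 90% and 92.9% against 38.5%, 58.8% and 56.2%. At 4637693 they were 70%, 100% and 90.9% against 66.7%, 45.5% and 55.6%, so high OC replicate 1 was 3.33 points above low OC replicate 1.

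Other exon sites had smaller differences between group means. At 4637712 levels were 83.3%, 90% and 92.9% against 76.9%, 50% and 66.7%. The smallest exon difference, 17.1 points, was at 4637694, with 84.6%, 100% and 85.7% against 76.9%, 68.8% and 73.3%. Sites 4637693 and 4637694 are the plus and minus strand of the same CpG, the only one of the 35 sites for which both strands were listed. Both strands were higher in high OC skin, by 31.1 and 17.1 points.

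The pair of intron sites outside the promoter annotation had high levels in every sample. At 4637507 the high OC samples had 95.2%, 86.7% and 93.8% and the low OC samples 69.2%, 72.2% and 84.2%. At 4636495 the high OC samples had 100%, 100% and 87.5% and the low OC samples 71.4%, 87.5% and 71.4%. This was the only site where the groups met, since high OC replicate 3 and low OC replicate 2 had the same level.

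**Figure D2:**
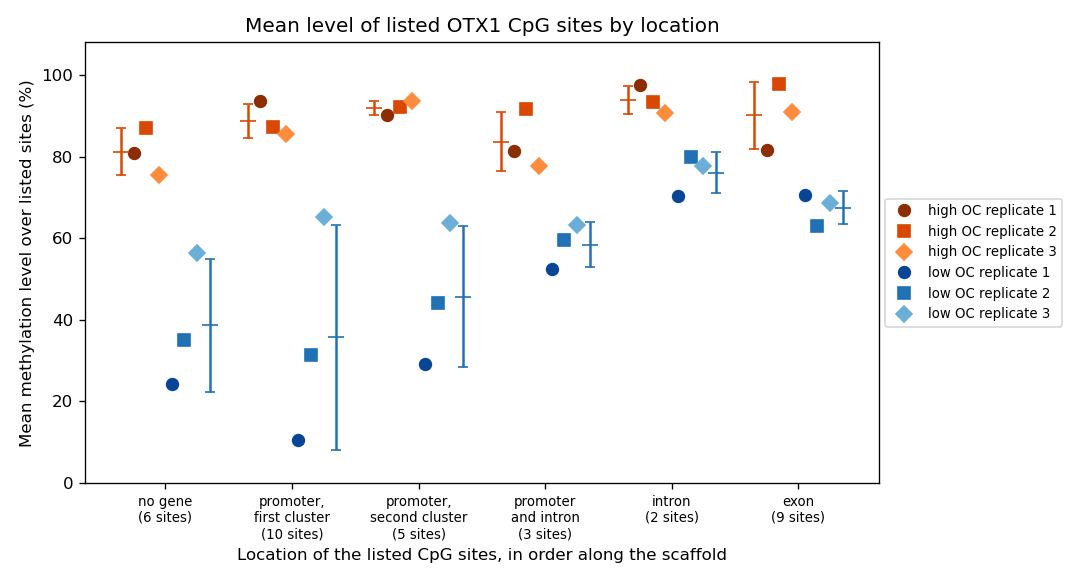
Mean methylation level over the listed sites in percent (vertical axis) for each sample and location, in order along the scaffold (horizontal axis). Points are samples, and horizontal marks with bars are the group mean ± SD of 3 samples. The low OC samples range over 54.7 points in the first promoter cluster and over 7.76 points in the exon.

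Among these listed sites, the spread within the low OC group differed by location. The p limit of the list lets a wide spread through only where the difference is large. Differences were smaller from 4635163 onward, so nothing is read from the change of spread with location. From the sites with no gene through the second promoter cluster, 21 sites in all, low OC replicates 1, 2 and 3 averaged 18.9%, 35.5% and 62.4%. Over the 14 sites from 4635163 onward they averaged 66.7%, 64.6% and 68.9%, a range of 4.24 points. The high OC samples ranged over 4.54 points in the first of these stretches (89.1%, 88.4% and 84.6%) and over 12.0 points in the second (83.8%, 95.8% and 88.1%). Low OC replicate 1 was the lowest of all 6 samples at each of the 21 sites. In the exon it was the lowest of its group at 2 of 9.

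In the authors' deposited table, 22 of the 35 sites were classed as strongly higher, which the table gives to differences of at least 33 points. These were the 6 sites with no gene, the 15 sites annotated as promoter alone and 1 exon site. The unadjusted p-values of that table ran from 0.0004959 to 0.04977 and were above 0.04 at 13 sites. The shares of all listed CpG sites with that class, or above that p-value, were not counted here. Nothing is therefore read from the counts of 22 and 13. The site closest to the limit of the list was 4634253, where a difference of 56.5 points had a p-value of 0.04977 in the authors' deposited table. Sites just outside the limit were not analysed here.

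Many of the 35 sites share reads, so they are not 35 separate measurements. Sites of a strand and cluster whose read counts were equal or exactly doubled in all 6 samples formed 23 sets, of which 13 held a single site. Near matches were kept apart by this rule. Sites 4634801 and 4634835 differed only in low OC replicate 1, with 12 and 13 reads, and fell in different sets. There may thus be fewer separate measurements than 23. At 4634380 the samples had 14, 11, 9, 19, 19 and 22 reads, in the order high OC replicates 1 to 3 and low OC replicates 1 to 3. The next sites, 4634397 and 4634408, had exactly double those counts in each sample. The same held at 4635163 against its neighbours at 4635185 and 4635192. If reads were counted doubly there, the intervals at those 3 sites would be too narrow, and whether they were was not tested. With each set given equal weight, the promoter difference was 47.5 points.

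Read depth was not part of the difference that chose these sites, although the lists hold no site under 5 reads. It was lower in high OC skin, with means over the 35 sites of 14.3, 12.1 and 13.7 reads against 18.0, 18.4 and 15.5 reads. The group means were 13.4 ± 1.11 and 17.3 ± 1.55 reads (SD, n = 3), and the groups did not overlap. An exact permutation test, two-sided, returned p = 0.1, the smallest that 3 samples against 3 allow, so the test could not pass 0.05. Over all listed CpG sites depth leaned the other way, at 18.7 ± 1.32 reads in high OC and 17.5 ± 0.247 reads in low OC skin (SD, n = 3). Low OC replicate 3, the most methylated low OC sample in the promoter, had a median of 6 reads at the 15 sites annotated as promoter alone and 44 at the deepest. Its level there stayed between 50% and 72.7%. The part of depth in the level difference was not tested.

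**Figure D3:**
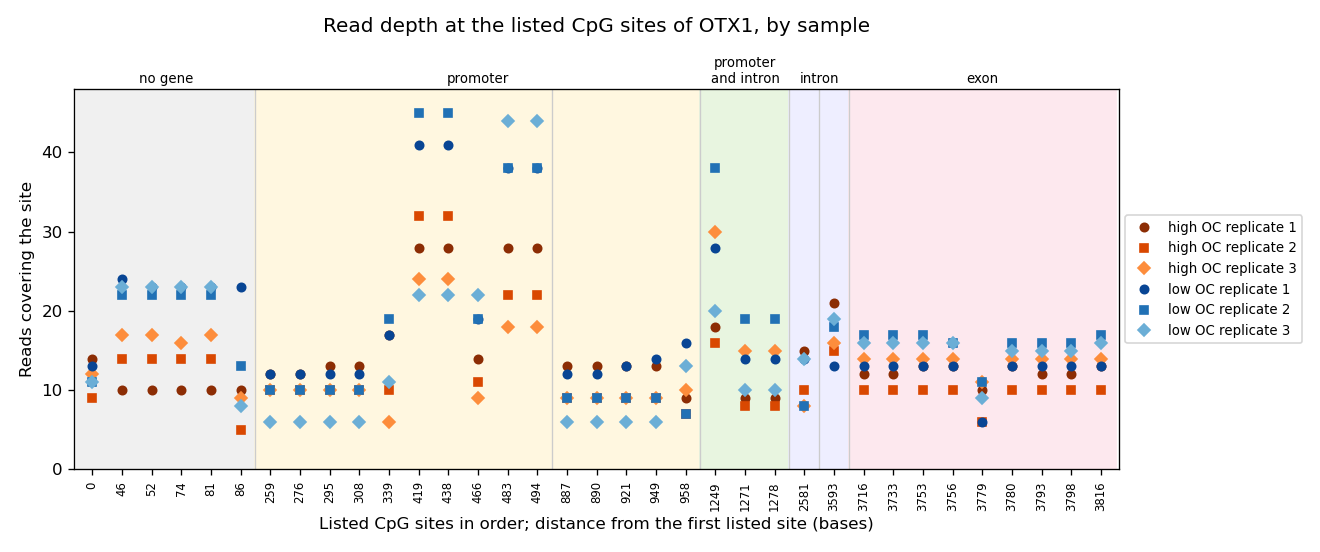
Reads covering each of the 35 listed CpG sites (vertical axis) by sample, in order along the scaffold with the distance in bases from the first site (horizontal axis, not to scale). Colours are as in the plot of levels. Stretches of equal or doubled counts mark sites on shared reads, and depth runs from 5 to 45 reads.

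Set beside other promoters, that of OTX1 had the most listed sites, the largest difference between group means and the widest range among low OC samples. There were 36 promoters with at least 6 listed CpG sites, transfer RNA genes left aside, and they are set in order here with no test. The OTX1 low OC samples ranged over 41.8 points. In the other 35 promoters that range ran from 0.455 to 24.8 points, with a median of 6.76. HOXC10, of the posterior HOX genes, came next at 24.8 points, and HENMT1, a methyltransferase of small RNAs in the germ line, followed at 18.3. The place of OTX1 rests on low OC replicate 3. Its range was 24.9 points without low OC replicate 1, still the widest, and 17.0 points without replicate 3. Without replicate 3 it ranked 3 of 36, and HOXC10 at 24.8 points was the widest. Nor was the separation of the groups the widest at OTX1: its lowest high OC sample was 21.9 points above its highest low OC sample, which ranked 5 of 36. That distance was larger in 4 promoters, among them HAND1, which encodes a factor of heart development, at 23.9 points and LOC103018760 at 23.5 points. In high OC skin the OTX1 samples ranged over 4.11 points, below the median of 8.30 points in the other promoters. OTX1 also had the highest high OC mean of the 36, 88.8%. TEX26, the next highest at 86.1%, had a smaller range, 3.69 points. Low OC samples in the order of replicates 1, 2 and 3 from lowest to highest were found in 3 of the 36 promoters, OTX1 included.

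**Figure D4:**
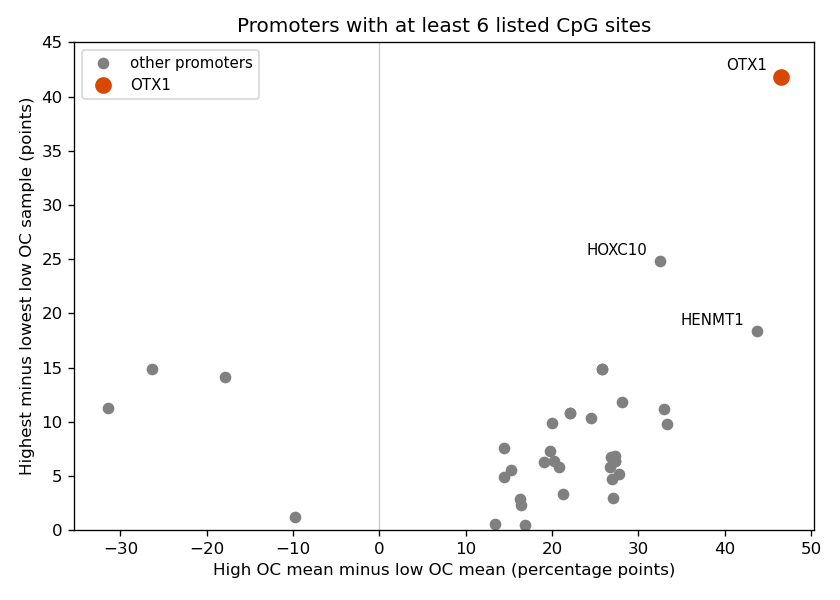
High OC mean minus low OC mean in percentage points (horizontal axis) against the highest minus the lowest low OC sample in points (vertical axis), for the 36 promoters with at least 6 listed CpG sites. Each point is a promoter, with levels averaged over its listed sites. OTX1 lies at 46.5 and 41.8 points, at the far end of both axes.

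Likeness of the other promoters to OTX1 was measured as the root mean square distance between levels over the 6 samples. The nearest promoter, that of LOC103018760, was 15.6 points away. S1PR4, a sphingosine 1-phosphate receptor of immune cells, followed at 17.6 points, TEX26 at 17.8 points and SOX14, a transcription factor of interneurons, at 18.3 points. PRDX2, a peroxiredoxin that breaks down peroxides, shares its listed promoter sites with RNASEH2A, a subunit of ribonuclease H2, at 19.0 points. Each had a smaller range among low OC samples than OTX1. That of TEX26, the widest of these, was 11.8 points.

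At listed sites in general the low OC samples averaged close together. At the other 16565 CpG sites listed as higher, low OC replicates 1, 2 and 3 averaged 46.8%, 47.6% and 47.8%. Replicate 1 was the lowest of its group at 28.6% of these sites. The median range among low OC samples was 10.6 points there, against 44.9 points per site at the 18 OTX1 promoter sites. All these sites had passed the p limit, which bounds that range. Over the 651 unselected sites on another scaffold the median range was 8.33 points. It was 29.9 points at the 60 of these with at least 10 reads per sample and a low OC mean of 20% to 70%. At 23 of those 60 sites the range was at least that of the OTX1 promoter. Of the 292 unselected sites of that depth, 47 lay in a single stretch, described under other observations. How many of the 60 lay there was not counted, so they may largely reflect that stretch. The other 43 listed CpG sites on the OTX1 scaffold were split into 25 higher and 18 lower. WDPCP and EHBP1, which flank OTX1 in RefSeq's genes of the fin whale assembly (mBalPhy2.hap1.1), had 0 listed CpG sites. The scaffold names of the listed sites are not those of that assembly. The place of these 2 genes on the OTX1 scaffold was therefore not checked.

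Relatives of OTX1 did not share a direction. Of 9 genes of related paired-like homeodomain factors, 4 had a listed CpG site, 2 with more higher and 2 with more lower sites. OTX2, the closest relative and a regulator of head and eye formation, had 3 higher and 1 lower sites, averaging 26.2% ± 4.86 against 13.2% ± 3.07 (SD, n = 3) in low OC skin. PITX1, of pituitary and hindlimb development, had 2 higher sites at 64.7% ± 1.51 against 43.7% ± 9.59 (SD, n = 3). GSC, a factor of early head organisation, had 1 lower site at 77.8% ± 4.81 against 90.7% ± 1.72 (SD, n = 3).

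Among genes of forebrain and midbrain patterning more were higher than lower. Of 32 such genes 22 had a listed CpG site, 16 with more higher and 6 with more lower sites, and their median difference was 12.2 points. Of the 6176 genes named at any listed CpG, 3060 had more higher and 2505 more lower sites, and the median difference was 3.24 points. EMX2, a cortical homeobox factor, had 10 higher sites and none lower, at 22.7% ± 1.41 against 6.96% ± 1.92 (SD, n = 3). MEIS1, a homeodomain partner of HOX proteins, had 8 higher and none lower, at 94.3% ± 2.46 against 77.9% ± 1.10 (SD, n = 3). PAX2, a paired-box gene of the midbrain boundary, eye and kidney, had 7 higher and 2 lower. BCL11B, a zinc finger factor of cortical projection neurons, had 6 higher and 4 lower.

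Of 24 genes of eye and inner ear development 12 had a listed site, 9 with more higher and 2 with more lower sites, with a median difference of 12.8 points. NEUROG1, which specifies inner ear neurons, had 3 higher sites at 25.8% ± 5.37 against 7.11% ± 2.56 (SD, n = 3), and PAX8, a gene of the early ear and thyroid, also had 3 higher. TBX1, a T-box gene of the ear and pharynx, had 6 lower sites at 34.4% ± 6.43 against 62.6% ± 2.69 (SD, n = 3), and GATA3, a gene of the inner ear and T cells, had 1 higher and 3 lower. None of these genes was tested, since the same listing chose their sites.

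Methylation gives no measure of expression, so the labelled tissue could not be checked against markers of its cells. Of 20 markers of keratinocytes, melanocytes, fibroblasts, adipocytes, blood and endothelium, 2 had listed CpG sites. DCT, a melanocyte enzyme, had 1 lower site and PDGFRB, a receptor of fibroblasts and mural cells, had 2 higher and 4 lower. In bulk skin, a shift in the share of a cell type and a change of methylation within cells cannot be told apart, and the part of either in the OTX1 values was not tested.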

How the data were processed

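RRBS was run on MspI-digested skin DNA of 6 samples, per the labels' protocols. The submitters' processing notes name Bismark. Its version, the build and the annotation were not given in the sources used here. Per the file headers, the authors deposited for each cytosine each sample's methylation level as a fraction (2 decimals), the coverage as a count of reads, a difference of group means and an unadjusted p-value. The lists hold no site under 5 reads.

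Methylated reads were taken as level times coverage, rounded, and levels recomputed from them in percent; all 210 OTX1 values matched within 0.0051 of the deposited fraction. Levels were averaged over sites per sample, then over the 3 samples of a group (mean ± SD). Intervals are Wilson 95% intervals, and a count of 0 allows 3 reads of the total; reads carried no molecular identifiers, so both cover counting error only. OTX1 sites, gene lists, clusters and comparison promoters were chosen with earlier results of these data known. Sites described singly were, per location, the 3 with the largest difference and the 1 with the smallest; genes likest to OTX1 were the 5 promoters nearest in level, and up to 4 genes per list were named by their number of listed sites. Sites named for another reason are marked. Unselected sites came from the analysed first part of the table of all tested CpG sites, 651 sites on scaffold NW_006724458_1; the rest was not analysed here. Of 84 genes in the gene lists, 81 were found by symbol in the RefSeq table, used for names and for the genes flanking OTX1. The values of 1 gene of these lists are not reported here. The group difference was checked on simulated levels, and the permutation test and the matching of gene names on made-up inputs. The other summaries were not checked in this way. Alternatives were read minimums of 10 and 20, pooled reads, medians, 1 value per CpG or per read set, windows of 5000 and 50000 bases, scaled depth and each sample left out. Python 3.11.15, numpy 2.4.6, scipy 1.17.1, pandas 2.3.3 and matplotlib 3.10.9 were used.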

Additional observations from a re-analysis of the deposited data

How the results depend on the processing

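The promoter difference of 46.5 points became 36.7 to 57.6 points under the 12 alternatives, with both ends from leaving out a low OC sample. The sites were always those listed with all 6 samples in view. At all 18 sites every high OC sample was above every low OC sample. Leaving out sites or samples could therefore not turn the sign. No shift from 46.5 points exceeded the spread between samples, but the low OC SD of 21.0 made that spread wide. Nothing is therefore read from the steady sign or the size of the shifts. Outside the promoter the difference was 29.1 points. It was 23.2 points as a median over sites, a shift larger than the spread between samples, and 26.1 to 32.7 points with a sample left out. No site outside the promoter had at least 20 reads in each sample. The range among low OC samples in the promoter was 41.3 to 58.4 points under 6 alternatives, and the highest value rests on the 2 sites with at least 20 reads. With a low OC sample left out, an alternative chosen after seeing the data, it was 17.0 to 41.8 points. Of the 35 sites, all higher, 18 had at least 10 reads in each sample and 2 at least 20, and counting each read set once, an alternative chosen after seeing the data, left 23. Windows of 5000 and 50000 bases gave the same 35. Depth was lower in high OC skin by 2.67 to 5.06 reads under all 8 alternatives, with exact permutation p between 0.1 and 0.3; with a sample left out the difference ran from -4.83 to -3.32 reads. No paired analysis was possible because the labels give no replicate numbers shared by the groups.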

Other observations

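The order of the low OC samples at the OTX1 promoter was also found in a stretch of unselected CpG sites on another scaffold, NW_006724458_1, which was singled out after its values were seen. Between starts 818153 and 818533, 47 CpG sites were covered by 10 or more reads in every sample, and these were not chosen for a difference between groups. High OC samples averaged 61.3%, 70.7% and 64.6% there, and low OC replicates 1, 2 and 3 averaged 39.6%, 43.9% and 70.3%. Replicate 3 was the highest of its group at 35 of the 47 sites and lay within the range of the high OC samples. The group means were 65.6% ± 4.77 (SD, n = 3) and 51.3% ± 16.6 (SD, n = 3), so the groups overlapped, and the authors called 4 of these sites. The other 245 unselected sites of that depth did not show the order: the low OC samples averaged 22.8%, 24.3% and 22.6%, and the high OC samples 23.0%, 22.5% and 22.5%.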
